A study of Caenorhabditis elegans with 2 samples.

Results

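Far intergenic summits of RNA polymerase II are the peak summits that lay outside every protein-coding gene and over 500 bp from every coding 5′ and 3′ end. They numbered 450 of the 3052 optimal peaks in whole L3 larvae of Caenorhabditis elegans, which is 14.7% (95% exact Clopper-Pearson interval 13.5 to 16.1). The rule used only the position of each summit and the Ensembl annotation of the genome, not the height of the peak. Chromatin immunoprecipitation had been carried out with an antibody against AMA-1, which is the large catalytic subunit of the polymerase, followed by sequencing. There was 1 group, strain N2 with no transgene or treatment named, in pools of both sexes, with 2 biological replicates. The whole animal was used, so cell types cannot be told apart. The optimal peaks are the list that the authors named as thresholded by the irreproducible discovery rate, a measure of repeatable ranking. All 3052 are the 3052 strongest of the authors' pooled list of 30000 regions by signal, and single peaks can rank far apart in the replicates. The pooled list and the list of each replicate are labelled as peaks and background, so a region in them need not be a peak. The sequencing depth is not given in the sources used here, and the control libraries were not analysed here. With 1 group, and with peaks that are not replicates of one another, no test between groups was made. Intervals cover counting error only, and neighbouring summits are not independent.

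RNA polymerase II makes messenger RNAs, but also most small nuclear RNAs (parts of the splicing machinery), microRNA precursors and long noncoding RNAs, while RNA polymerase III makes tRNAs, 5S rRNA and a few small RNAs. In this nematode the leader RNAs SL1 and SL2 are also made by polymerase II and are joined to the front of many messenger RNAs by trans-splicing. The start of such a messenger RNA in the annotation is often the splice site, and its true start lies farther upstream. A summit far from a coding end can therefore lie at a noncoding gene, at a distant start, at an enhancer or at a transcript that has no annotation, and peak lists alone do not separate these.

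The sequences below are 4 examples of summits near small noncoding genes: on the first base of a leader RNA, upstream of a microRNA hairpin, beside a small nucleolar RNA, and within a hairpin. Each is 300 bases around a summit, from the plus strand of WBcel235, which is ce11, and capitals mark the bases of the noncoding gene named, while other genes that overlap it are left in lower case. The windows are chrII:5543448-5543747 for sls-2.2, an SL2 leader gene on the plus strand, chrIV:14033772-14034071 for mir-52, a member of the mir-51 family on the plus strand, chrII:11167050-11167349 for the small nucleolar RNA gene K07C10.2 on the plus strand, and chrIV:11027499-11027798 for mir-53, of the same family, on the minus strand.
sls-2.2: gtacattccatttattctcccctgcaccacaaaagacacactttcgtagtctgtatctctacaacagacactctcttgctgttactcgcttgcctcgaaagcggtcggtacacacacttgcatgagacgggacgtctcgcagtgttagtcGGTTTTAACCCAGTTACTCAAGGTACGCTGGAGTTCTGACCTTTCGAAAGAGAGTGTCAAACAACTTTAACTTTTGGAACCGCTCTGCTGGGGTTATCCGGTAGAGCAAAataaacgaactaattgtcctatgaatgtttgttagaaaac
mir-52: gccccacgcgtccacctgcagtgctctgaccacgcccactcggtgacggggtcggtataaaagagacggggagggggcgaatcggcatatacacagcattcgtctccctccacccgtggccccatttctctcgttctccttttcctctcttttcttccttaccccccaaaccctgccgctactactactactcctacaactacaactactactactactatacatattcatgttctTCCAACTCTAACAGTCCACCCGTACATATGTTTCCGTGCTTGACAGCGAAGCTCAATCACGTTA
K07C10.2: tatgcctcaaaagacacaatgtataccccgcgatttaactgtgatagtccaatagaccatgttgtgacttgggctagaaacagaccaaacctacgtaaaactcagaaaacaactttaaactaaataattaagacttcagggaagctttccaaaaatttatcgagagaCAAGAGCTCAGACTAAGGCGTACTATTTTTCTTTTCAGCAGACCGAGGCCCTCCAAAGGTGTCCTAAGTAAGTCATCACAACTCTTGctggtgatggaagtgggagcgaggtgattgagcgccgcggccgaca
mir-53: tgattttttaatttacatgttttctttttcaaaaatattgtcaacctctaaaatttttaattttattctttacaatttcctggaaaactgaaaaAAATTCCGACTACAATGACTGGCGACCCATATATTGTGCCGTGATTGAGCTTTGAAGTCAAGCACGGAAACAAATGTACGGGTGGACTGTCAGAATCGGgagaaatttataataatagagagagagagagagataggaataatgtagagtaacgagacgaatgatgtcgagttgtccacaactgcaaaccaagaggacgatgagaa

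The next windows are some of the strongest summits at no annotated noncoding gene. The last of them, upstream of F54F12.1, is also among the strongest (signal 227) and lacks the motif. Capitals mark GAGAGA or, for the other strand, TCTCTC, whose share among the summits is described further on. The windows are chrII:6348332-6348631, upstream of lgg-1, the worm ATG8 protein of autophagosomes, chrII:11635874-11636173, upstream of din-1, a corepressor of the nuclear receptor DAF-12, chrII:8787465-8787764, upstream of F07H5.13, and chrIII:13061268-13061567, upstream of F54F12.1. All are again from the plus strand of WBcel235.
lgg-1: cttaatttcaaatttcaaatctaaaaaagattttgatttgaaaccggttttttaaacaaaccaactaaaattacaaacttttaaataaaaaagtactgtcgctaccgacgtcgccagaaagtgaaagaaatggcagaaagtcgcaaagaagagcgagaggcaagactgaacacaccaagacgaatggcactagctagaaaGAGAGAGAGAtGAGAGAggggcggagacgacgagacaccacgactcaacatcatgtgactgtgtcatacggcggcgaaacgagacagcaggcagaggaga
din-1: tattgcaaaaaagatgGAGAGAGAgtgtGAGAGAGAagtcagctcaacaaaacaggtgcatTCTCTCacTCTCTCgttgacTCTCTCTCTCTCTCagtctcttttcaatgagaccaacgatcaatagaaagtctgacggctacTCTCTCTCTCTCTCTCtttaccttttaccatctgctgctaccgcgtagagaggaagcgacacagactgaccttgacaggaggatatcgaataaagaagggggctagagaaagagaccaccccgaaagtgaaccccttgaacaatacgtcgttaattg
F07H5.13: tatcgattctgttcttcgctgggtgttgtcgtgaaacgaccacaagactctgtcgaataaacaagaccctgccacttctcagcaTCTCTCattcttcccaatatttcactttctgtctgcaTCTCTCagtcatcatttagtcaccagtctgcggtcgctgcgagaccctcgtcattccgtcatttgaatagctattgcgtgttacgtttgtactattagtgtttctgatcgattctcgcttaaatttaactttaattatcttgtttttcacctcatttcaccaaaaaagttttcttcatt
F54F12.1: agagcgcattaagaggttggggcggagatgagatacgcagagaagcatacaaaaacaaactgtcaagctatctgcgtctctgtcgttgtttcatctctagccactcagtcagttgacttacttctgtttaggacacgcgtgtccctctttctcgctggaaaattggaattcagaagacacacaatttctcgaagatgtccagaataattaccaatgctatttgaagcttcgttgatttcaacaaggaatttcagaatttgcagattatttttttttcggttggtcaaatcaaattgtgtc

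The strongest far summits were at noncoding genes. The signal quoted for each peak is the authors' value in the optimal list, on a scale not given in the sources used here, and the rank is the place of the peak's region by signal among the 30000 regions that the authors called in each replicate. The summit at sls-2.2 had a signal of 1034.5, the second highest of all optimal peaks, and ranked 3 in replicate 1 and 5 in replicate 2. It lay on the first base of the gene, shown in capitals above. The gene C17C3.23, of the class ncRNA on the other strand, overlaps sls-2.2, and peaks carry no strand. Of that 300-base window, 21.1% of the 31-base words occur again in the genome, so its reads can be shared with other places. Of the 18 SL2 genes, 13 had an optimal summit within 500 bp, sls-2.2 was the 1 with a far summit, and 2 of the 18 lie wholly in far intergenic sequence. None of the 12 SL1 genes, all of them in far intergenic sequence, had an optimal summit. How well reads can be placed in the SL1 repeats was not tested.

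The long gene C30E1.9 on X held more far summits than any other noncoding gene. It belongs to the class ncRNA, runs over 14770 bases on the plus strand (X:16929914-16944683), and has no role that the annotation gives. All 9 of its optimal summits were far ones. The summits 95, 1084 and 1585 bp past its 5′ end had signals of 765, 780 and 698, and ranked 6, 2 and 7 in replicate 1 and 17, 72 and 50 in replicate 2. A further summit among them, 573 bp past the 5′ end, had a signal of 193, and ranked 68 in replicate 1 and 8520 in replicate 2. The other 5 lay toward the 3′ end, with signals between 65.7 and 217, and no optimal summit lay between these clusters. In replicate 2 those of 217, 99.7, 73.8 and 69.0 ranked 221, 6566, 7891 and 2807, and that of 65.7 had no matching region. The snoRNA gene F52G3.6 lies inside the 3′ cluster, with a summit of signal 99.7 inside it.

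W05H9.3, an ncRNA gene of 1512 bases on X (X:6252274-6253785, plus strand), had its highest summits at its ends. A summit 93 bp past its 5′ end had a signal of 350 and a summit 186 bp past its 3′ end had one of 417. The summits between them had signals of 161 and 131. The peak of 350 ranked 54 and 39 in replicates 1 and 2, the peak of 417 ranked 22 and 75, and the peak of 161 ranked 127 and 5994. The other 2 summits of the same gap lay nearer linc-103, a long intergenic noncoding gene, and the one 237 bp upstream of it had a signal of 80.0.

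**Figure D1:**
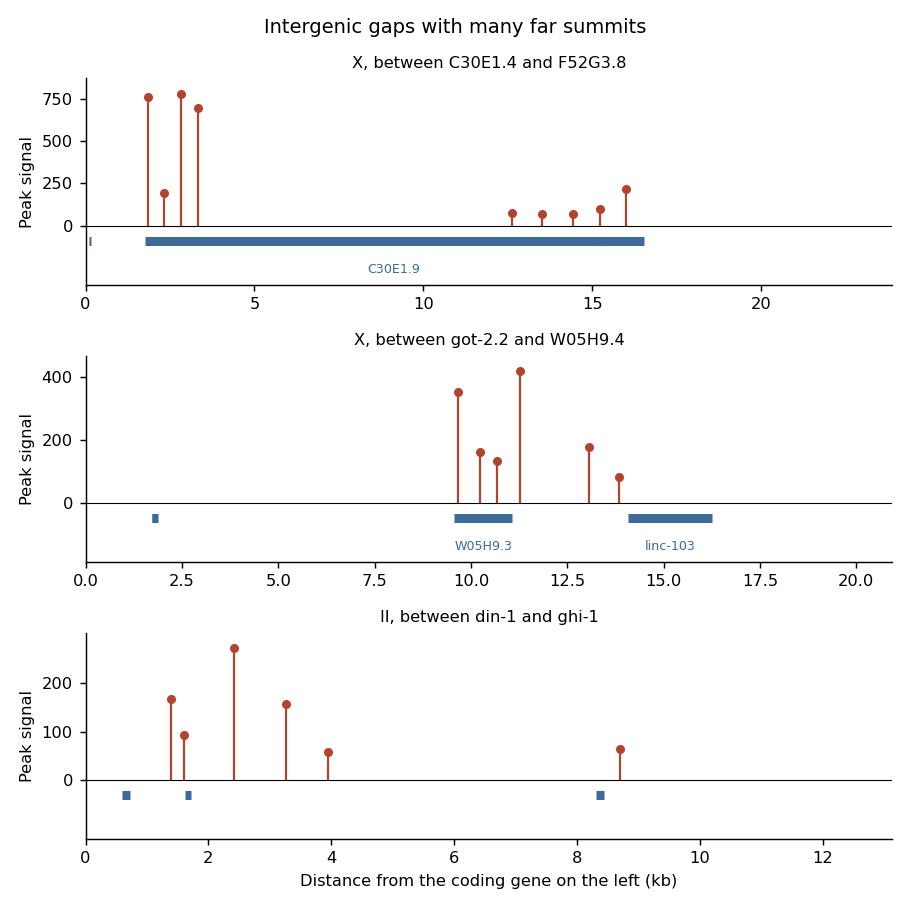
Authors' signal of each far intergenic summit (stems) along 3 gaps between coding genes, against the distance from the coding gene on the left in kb, with noncoding genes other than piRNAs as blue bars. In the C30E1.9 gap 4 summits stand near the 5′ end of the gene and 5 near its 3′ end, in the W05H9.3 gap the highest stems, 350 and 417, stand at the ends of W05H9.3, and in the din-1 gap most of the 6 summits lie within 4 kb of din-1.

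The gene tts-1 encodes an abundant long noncoding RNA known from dauer larvae and long-lived mutants, where it associates with ribosomes. Its 2 summits inside the gene (X:1504131-1504841, minus strand, 711 bases) had signals of 575 and 152, and both were matched to the region that ranked 3 in replicate 2. In replicate 1 the matching regions ranked 52 and 672. The other long noncoding gene of known function with a far summit, lep-5, which times the male tail in the heterochronic pathway, had a signal of 102 and ranked 583 in replicate 1 and 17820 in replicate 2. The lincRNA gene with the strongest summit was K07C10.8 (signal 231), which overlaps K07C10.2 and genes of the class ncRNA so that they cannot be told apart. It was followed by linc-154 (signal 160), whose summit lay 5 bp past its 3′ end and inside the hairpin of mir-8196a. In all, 8 of the 170 linc genes had a far summit, and 17 had an optimal summit of any kind.

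MicroRNA genes gave 13 far summits at 13 genes. The summit 86 bp upstream of the mir-52 hairpin had a signal of 696 and ranked 11 and 8 in replicates 1 and 2. It also lay inside Y37A1B.330, a gene of the class ncRNA on the same strand, with 4 more ncRNA genes within 500 bp, so the signal cannot be given to mir-52 alone. Of the 13 microRNA summits, 8 were also at a noncoding gene of another class, and 2 of these lay inside it. The summit 146 bp upstream of mir-80, a relative of bantam, had a signal of 361 and ranked 55 and 40. These were by far the highest of the class, whose median signal was 87.5. Of the pairs of a summit with a microRNA gene, 9 of 15 had the summit upstream, 3 inside and 3 downstream, with a median position of 11 bp before the annotated 5′ end of the hairpin. The summit of mir-228 lay 66 bp upstream and inside the ncRNA gene T12E12.44 (signal 118), that of mir-235, the worm member of the mir-92 family, 11 bp upstream (signal 87.5), and 1 summit 6 bp upstream of mir-42, of the mir-35 family, also lay within 500 bp of mir-43 and mir-44 (signal 64.7). Of the heterochronic microRNAs, mir-48 of the let-7 family had a far summit 454 bp upstream, with a signal of 70.2 and ranks of 2097 and 8375. The summit 26 bp downstream of mir-34 had a signal of 65.5 and no matching region in replicate 2.

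Small nucleolar RNA genes, whose RNAs guide the modification of ribosomal and other RNAs, gave 16 far summits with signals between 68.1 and 238. The strongest were at F47G4.9 (238, upstream of hmg-6) and K07C10.2 (231). The summit at ZK484.11 lay inside the snoRNA gene and 519 bp upstream of oaz-1, the antizyme of ornithine decarboxylase, with a signal of 182. The snRNA gene T08G5.11 had summits of 190, 40 bp past its 3′ end, and 91.6, 1 bp before its 5′ end. Both ranked high in replicate 2 (34 and 79) and low in replicate 1 (1255 and 8093). The snRNA gene C47F8.9 did likewise, with ranks of 83 in replicate 2 and 4814 in replicate 1 and a signal of 116. Of the 31-base words in the T08G5.11 windows 20.4% and 44.1% occur again in the genome, and of those in the C47F8.9 window 80.4%, the highest share of any far summit. The part of shared reads in these ranks was not tested. At tRNA genes, which polymerase III transcribes, 4 far summits had signals of 61.4 to 76.1. At piRNA genes the highest signals were 139, at 21ur-8796, and 128, at 21ur-1027, both on IV, and 34 pairs of a summit with a piRNA gene came from 14 summits, since these genes lie close together.

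Altogether 154 of the 450 far summits (34.2%, interval 29.8 to 38.8) lay inside or within 500 bp of a noncoding gene, against 487 of the 2602 other summits (18.7%, 17.2 to 20.3). Such places make up 19.8% of the far intergenic sequence, and their share of the rest of the genome was not computed. Inside a noncoding gene lay 72 far summits (16%) and 5.88% of the other summits. The unspecific class ncRNA, which holds genes that the annotation puts in no finer class, had the most, 118 of the 450, and made up 10.1% of the sequence. By class, 3.56% of the far summits lay at a snoRNA gene, against 0.349% of far sequence, and 2.89% lay at a microRNA gene, against 0.418%. For lincRNA genes the shares were 3.11% and 1.2%, for snRNA genes 0.889% and 0.13%, for tRNA genes 0.889% and 0.69%, and for piRNA genes 3.11% and 8.21%. Of the other summits, 3.42% lay at a snoRNA gene, 1.04% at an snRNA, 1.42% at a tRNA and 2.38% at a piRNA gene. These 4 shares lay within the intervals of the far summits. The other summits had 1.04% at a microRNA and 0.615% at a lincRNA gene, both below the far summits' intervals. No far summit lay at an rRNA gene or a gene of the class antisense_RNA. Measured to the nearest noncoding gene, the median distance was 1436 bp from far summits and 3647 bp from far sequence. That nearest gene was an ncRNA in 276 (61.3%), a piRNA in 65, a snoRNA in 54, a lincRNA in 26, a microRNA in 15, an antisense_RNA in 7, a tRNA in 5 and an snRNA in 2. A snoRNA was nearest in 12% of far summits, in 4.14% of far sequence and in 11.1% of the other summits.

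**Figure D2:**
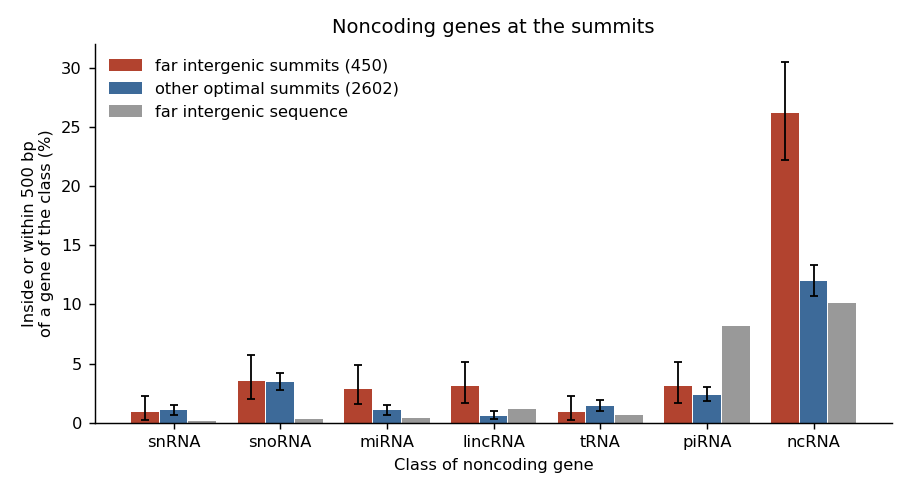
Percent of far intergenic summits (450), of other optimal summits (2602) and of far intergenic sequence that lay inside or within 500 bp of a gene of each noncoding class, with 95% exact binomial intervals for the summits. For ncRNA genes the bars are 26.2% of far summits, 12% of other summits and 10.1% of far sequence. For piRNA genes they are 3.11%, 2.38% and 8.21%. Far sequence is a background for the far summits only.

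Seen from the genes, most noncoding genes in far intergenic sequence had no optimal summit. Of the snRNA genes wholly in far sequence, 3 of 30 had one inside or within 500 bp (10%), and of all snRNA genes 23.3% did. For snoRNA genes the counts were 11 of 73 (15.1%), with 29.2% over the genome. For microRNA genes they were 13 of 110 (11.8%), with 16.1% over the genome. For lincRNA genes they were 10 of 109 (9.17%), with 9.79% over the genome, and for tRNA genes 7 of 190 (3.68%), with 7.35%. Of ncRNA genes 138 of 2980 had one (4.63%), with 6.47% over the genome, and of piRNA genes 34 of 7912 (0.43%), with 0.931%. The shares among genes of the far sequence were thus under the genome's in each class named here, and the genome's share lay within the interval for snRNA (2.11 to 26.5), microRNA (6.45 to 19.4), lincRNA (4.49 to 16.2) and tRNA genes (1.49 to 7.44). It lay above the interval for snoRNA (7.77 to 25.4), ncRNA (3.9 to 5.45) and piRNA genes (0.298 to 0.6). None of the 19 rRNA genes in far sequence had a summit, with an exact interval that reaches 17.6%.

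The other 296 far summits lay at no noncoding gene, and 250 of them were over 1000 bp from any. Of these 296, 288 were at no pseudogene either. Their median signal was 78.6, against 82.0 for the far summits at noncoding genes, and 92.2% of them had a region in both replicates. The strongest was 763 bp upstream of lgg-1 (signal 320, ranks 58 and 107), and nearer, at 725 bp, to the 3′ end of C32D5.10. Next were those 2415 bp upstream of din-1 (273, ranks 121 and 60), 2942 bp upstream of F07H5.13 (270, within 500 bp of a pseudogene) and 2589 bp upstream of mstr-1 (260). F54F12.1 had a summit 5976 bp upstream (227), W09D10.4 one 1488 bp upstream (218) and lpin-1, the worm lipin, one 2421 bp upstream (201, the highest far signal on V). The summit 922 bp upstream of cbp-1, which encodes the worm CBP and p300 histone acetyltransferase, had a signal of 532, ranked 15 and 32, and counted as at a noncoding gene through R10E11.12, 439 bp away. Among the 20 strongest far summits 13 were at a noncoding gene, several of them neighbouring summits of C30E1.9 or of W05H9.3. Among the 100 strongest 47 were at a noncoding gene.

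In relation to coding genes the far summits lay closer to 5′ ends than the sequence around them. The median distance to the nearest coding 5′ end was 1738 bp (quartiles 1003.8 to 3167.2, range 505 to 13202), against 2501 bp for the bases of far sequence. To the nearest 3′ end the medians were 3253.5 and 3383 bp. The summits stood on the upstream side of the gene with the nearest 5′ end in 400 of 450 cases (88.9%). Summits inside coding genes are excluded by the rule, so the downstream side is reached only past the whole gene. A high share is thus partly set by the rule, and the share over far sequence was not computed. A 3′ end was the nearest coding end for 113 far summits (25.1%, 21.2 to 29.4) and for 36.6% of far sequence. Density was 27.1 summits per Mb at 501 to 1000 bp from the nearest 5′ end, 21.4 at 1001 to 2000 bp, 15.9 at 2001 to 5000 bp and 8.56 farther away. By the distance from the nearest 3′ end the same bins gave 15.4, 19.3, 18 and 16.8 per Mb.

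**Figure D3:**
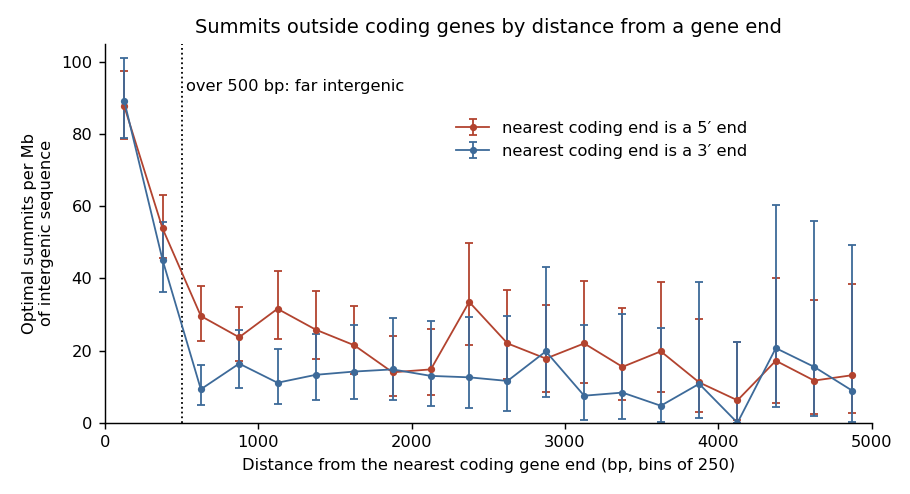
Optimal summits per Mb of sequence outside coding genes, in 250 bp bins by the distance to the nearest coding gene end, for sequence nearest a 5′ end (red) and nearest a 3′ end (blue), with 95% exact Poisson intervals. The dotted line marks 500 bp. Both lines stand near 88 per Mb in the first bin, and in the first bin past the line the red point is 29.6 and the blue point 9.29.

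Over all, far intergenic sequence made up 25.7 of 100.3 Mb (25.6%) and held 17.5 summits per Mb, against 34.9 per Mb in the rest of the genome, a ratio of 0.503. Gaps between the 5′ ends of a divergent pair of genes held 203 far summits, 45.1% of them on 37.2% of the far sequence (21.3 per Mb). Gaps between a 3′ and a 5′ end held 214 (47.6% on 52.3%, 15.9 per Mb), and gaps between the 3′ ends of a convergent pair held 33 (7.33% on 10.2%, 12.6 per Mb). Strong summits lay in gaps of every kind. Those at C30E1.9, mir-52, mir-80 and tts-1 lay between convergent genes, those at sls-2.2 and W05H9.3 between a 3′ and a 5′ end, and that upstream of cbp-1 between divergent genes.

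Many far summits had a neighbour. They fell in 295 of 8023 gaps with far sequence, and 77 gaps held 2 or more, 232 summits in all. Another far summit lay within 1000 bp of 156 of them (34.7%). The same share was not computed for the other optimal summits, so it is not known whether neighbours are particular to far summits. The gap of C30E1.9 held 9, and the gap of 5989 bp between mstr-1 and nars-1, the asparaginyl-tRNA synthetase, on I held 8, between 59.5 and 260 in signal. Each of 4 gaps held 6, those between got-2.2 and W05H9.4, din-1 and ghi-1, lpin-1 and letm-1, and gldi-3 and mtrr-1. Gaps with a far summit were longer, with a median of 5049 bp against 2657 bp for gaps without. Longer gaps also hold more far sequence, so a difference in this direction can follow from the rule alone. No expectation by length was computed. Upstream of hif-1, the hypoxia-inducible factor, 3 summits stood in the gap shared with F38A6.4, with signals of 176, 143 and 92.6.

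The farthest summit from a coding 5′ end lay 13202 bp from that of C31H1.2 on IV, with a signal of 61.3 and a piRNA gene, 21ur-6898, within 500 bp. The next were a summit 386 bp downstream of mir-80 (12244 bp, 68.3) and one inside C30E1.9 (12172 bp, 73.8). In that order, these summits ranked 3208, 1042 and 1286 in replicate 1 and 8450, 26657 and 7891 in replicate 2. At the limit of the rule, the 3 summits just inside lay 502, 505 and 506 bp from the nearest coding end, near W04D12.1, C56G2.9 and Y41C4A.22, with signals of 72.9, 66.7 and 76.0. The 3 just outside lay 490, 491 and 492 bp away, near Y59A8B.24, ptrn-1 and ZK632.4, with signals of 58.8, 64.4 and 122.

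By families of the nearest coding gene, the bHLH transcription factors had 7 far summits (1.56%, 0.628 to 3.18) on 0.467% of the far sequence, from 4 genes. These were hif-1, lin-32, a proneural factor, and mml-1 and mxl-3, which belong to the Mondo and Max-like network. Of the other summits 0.692% had a bHLH gene nearest, a share inside the interval above. The summits of mml-1 had signals of 126 and 98.6. Nuclear receptors had 9 (2.0% on 1.93%, with 1.69% of the others), from 8 genes, of which nhr-88, nhr-40, nhr-17, nhr-48 and nhr-14 are 5. The chemoreceptor genes had none, on 5.35% of the far sequence, and 0.922% of the other summits. Neuropeptide and insulin genes had 1, ins-13, by way of the peak at sls-2.2 (0.222% on 1.47%, with 0.576% of the others). Homeobox genes had 1, ceh-20 (0.222% on 1.03%, with 0.115% of the other summits). Collagens had 1, col-166 (0.222% on 0.652%, with 1.5% of the others). The group of T-box, GATA, forkhead, Sox and Ets genes had 2, both at fkh-9 (0.444% on 0.713%, with 0.269% of the others), and chaperones had 2, both at hsp-25 (0.444% on 0.167%, with 1.77% of the others). F-box and MATH-BTB genes had 2, at fbxa-83 and bath-44 (0.444% on 1.56%, with 0.269% of the others). Ribosomal protein genes and C-type lectins had none, on 0.169% and 0.643% of the far sequence, with 1.31% and 0.307% of the others.

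The far summits and the others had close median signals. That of the far summits was 79.4 (quartiles 67.1 to 103), against 79.2 (65.7 to 109) for the other optimal summits. Of the 20 strongest optimal peaks 7 were far ones, and of the 100 strongest 14. In the authors' pooled list of 30000 regions, 4780 were far by the same rule and 450 of these were optimal peaks (9.41%, 8.6 to 10.3), against 10.3% of the other regions, with 10.2% over the whole list, so that these are shares past 1 limit of signal. The share of far regions in the pooled list was 13.8% in ranks 1 to 1000 and 16.1% in ranks 20001 to 30000.

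Both replicates held a region, in their lists of peaks and background, at 416 of the 450 far summits (92.4%), against 91.9% of the others. Among the 3052 strongest regions of replicate 1 were 85.6% of the far summits and 80.6% of the others, and among those of replicate 2 were 56.0% and 60.5%. The strongest 3052 of both replicates held 47.1% and 46.2%. The ranks in the replicates had a Spearman rho of 0.22 over 416 far summits, and 0.21 over 2390 others, as a description across peaks that share libraries. For far summits and others alike, more of the list stood among the strongest regions of replicate 1 than of replicate 2.

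**Figure D4:**
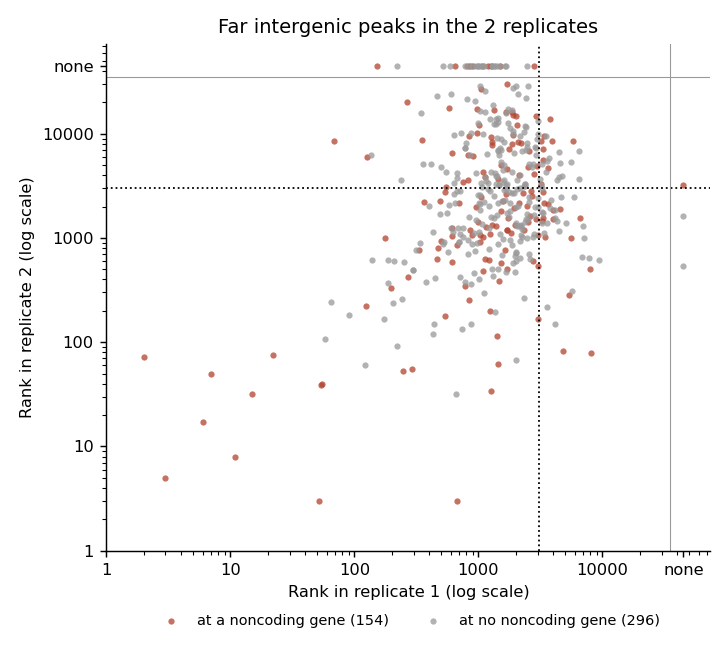
Rank of each of the 450 far summits in replicate 1 (horizontal) and replicate 2 (vertical), both on log scales, with summits that had no matching region in a list placed at "none". Dotted lines mark rank 3052, and 212 summits stand under it in both replicates. The 10 points with ranks under 100 in both are all at a noncoding gene (red), and several of them are neighbouring summits of C30E1.9 or of W05H9.3.

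On X, 91 of 432 optimal summits were far ones (21.1%, 17.3 to 25.2), against 13.7% (12.4 to 15.1) of the 2620 on the autosomes, where the shares ran from 12.7% on IV to 14.2% on I. The X chromosome also has more far sequence, 33.5% of it against 23.9% of the autosomes, so that its 15.3 far summits per Mb stood below the 28.2 on III, 24.9 on I and 20.4 on II and above the 14.1 on V and 11.4 on IV. With the 3052 strongest regions of each replicate alone, the shares on X were 22.5% and 20.1%, against 14.8% and 11.0% on the autosomes. At a noncoding gene were 46.2% of the far summits on X, 50% on IV and 22.7% on II.

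Windows of 300 bases at far summits held more G and C, and more often GAGAGA, than those of other summits or of sequence without a summit. Their GC content was 42.9% ± 5.76 (SD across 450 windows), against 41.1% ± 5.68 for the other summits and 34.3% ± 6.41 for 81289 windows of far sequence without a summit. GAGAGA, on either strand, was found in 248 far windows (55.1%, 50.4 to 59.8), in 32.4% of the other summits' windows and in 14.8% of the windows without a summit. Lower-case (masked) bases averaged 19.8% of far windows, 22.2% of the others and 40.2% of windows without a summit. In windows without a summit that were under 25% masked, GAGAGA was found in 21.6%. For both kinds of summit the share grew with GC content, and it was highest for far summits in each bin: at 35 to 40% GC it was 41.3%, 26.9% and 18.4%, and at 45 to 50% GC 69.6%, 39.7% and 27.7%. It was 54.5% at noncoding genes and 55.4% at none. In the strongest regions of replicate 1 alone the shares were 52.8% of far windows and 30.7% of others, and in those of replicate 2 alone 53.9% and 29.7%. The runs were mostly short. The longest alternating GA run in a window, on either strand, had a median of 6 bases at far summits and 5 at others. Runs of 20 bases or more were in 1.33% and 0.269% of the windows. In the windows printed above, din-1 carried copies in both directions, lgg-1 had 2 neighbouring runs, F07H5.13 2 copies and F54F12.1 none. Of the strong windows not printed, that upstream of W09D10.4 (signal 218) had a copy and that upstream of lpin-1 (signal 201) had none. Around far summits the share of summits with a copy starting in a 50-base bin was highest from 50 to 100 bases to the right, at 17.8%, and fell to 2.89% at 450 to 500 bases, where the other summits had 3.04%.

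**Figure D5:**
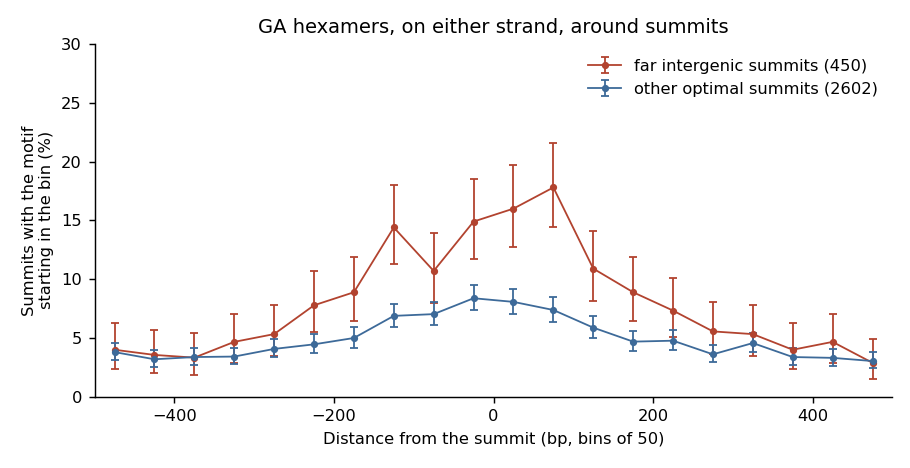
Percent of far intergenic summits (450) and of other optimal summits (2602) with GAGAGA or TCTCTC starting in each 50-base bin around the summit on the plus strand, with 95% exact binomial intervals. The far summits reach 17.8% near the summit, the others 8.38%, and both are near 3% at 500 bases.

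Other motifs were also searched on both strands. CACGTG, the E-box letters, was in 12% of the far windows, 9.26% of the others and 3.9% of windows without a summit, and GGGCGG in 16.4%, 10.5% and 4.78%. TATAAA was in 19.8%, 21.1% and 32.5%, and AATAAA in 32.4%, 41.8% and 53.2%, in the order far, other and no summit. TGATAA was in 21.3%, 22.1% and 24.8%, CTGTTTCA in 3.33%, 1.92% and 4.16%, the tRNA B box GTTCNANNC in 12%, 12.7% and 10.2%, and the heat shock element in 1.56%, 2.23% and 2.34%. TATAAA and AATAAA may overlap in part of their letters, and no motif was placed relative to a start. Of the far windows 93.3% held no repeated 31-base word, and 93.2% of the other summits' windows did not.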

How the data were processed

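AMA-1 ChIP-seq of whole L3 larvae had been carried out in 2 biological replicates of 1 group, and the peak lists in build ce11, which is WBcel235, were used. Per the labels of the deposited files, the authors had listed peaks and background, as input for the irreproducible discovery rate, per replicate and on pooled reads. Each of these lists holds 30000 regions. An optimal list, named as thresholded by that rate, holds the strongest 3052 pooled regions. In the deposited lists, column 7 is the signal of each peak, whose scale the sources do not state, and it was used within a list only. In column 9 of the deposited lists stands a −log10 q value, which no result uses. The sources used here give no aligner, caller, threshold or depth.

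A summit was far when it lay outside every protein-coding gene and over 500 bp from its ends (Ensembl release 115). Each summit was matched to the strongest region of a replicate whose own summit lay within 200 bp. Overlap of regions was not used, so an overlapping region with a more distant summit counted as absent. The same rule applied to every base of the 6 chromosomes gave the far sequence. Noncoding genes counted within 500 bp. Sequence came from the RefSeq copy of WBcel235, and motifs were searched on both strands in 300-base windows, with non-overlapping far windows without a summit as background. Computations used python 3.11.15, numpy 2.4.6, pandas 2.3.3 and scipy 1.17.1, and the masks were tested on simulated data. The members, lists and rules were chosen with earlier results of these data known. Named genes follow a rule: the 20 strongest far peaks, the 2 strongest at each noncoding class, the 3 farthest, the 3 just inside and outside 500 bp, the strongest per chromosome, and up to 5 of each family; other genes were named after their values were seen. The alternatives were 250 and 1000 bp, the whole peak, pseudogenes, other peak thresholds, each replicate alone, and other noncoding windows and classes. The ce10 lists were not used.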

Additional observations from a re-analysis of the deposited data

How the results depend on the processing

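Of 78 comparisons of a result with an alternative, 60 stayed within their spread and 18 moved. The count of 450 was 691 at 250 bp, 226 in the stronger part of the list and 922 in the 6104 strongest pooled regions. The share at a noncoding gene (34.2%) was 29.1% within 250 bp, 44.4% within 1000 bp, 16% inside the gene and 13.1% without the class ncRNA. The median distance to a 5′ end (1738 bp) was 1192 bp with a limit of 250 bp, 2421 bp with 1000 bp, 2027 bp for whole peaks, 1627 bp in the stronger part and 1871 bp in the larger pooled list. The signal ratio (1.0) was 0.984 at 1000 bp and 0.942 in the stronger part, below 1 where replicate 2 alone gave 1.02, so it has no steady direction, and the density ratio (0.503) was 0.671 at 250 bp. With 1 replicate alone, the count ran from 371 to 489, the share at a noncoding gene from 34.2 to 39.1%, the distance from 1656 to 1779 bp and the signal ratio from 1.0 to 1.02. The nearest coding end was a 3′ end in 25.9 to 27%, the X chromosome held 21 to 21.7% and the density ratio was 0.402 to 0.555. The share with GAGAGA, run after seeing the data, was 50.2% at 250 bp and 52.8 to 53.9% with 1 replicate alone. Leaving out C30E1.9, also chosen after seeing the data, moved no result past its spread. The limit, the window and the threshold change which summits or genes count, and the cause of the other moves was not tested. No paired analysis was possible because there is 1 group. Depth is unknown, so a gene without a summit is one at which none was called.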
